A study of Mus musculus with 27 samples.

Results

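The comparison of H3K4me3 with H3K27me3 at gene starts in mouse induced pluripotent stem cells (iPSCs) rests on 7 of the 27 samples of the series: 2 H3K4me3 libraries, 2 H3K27me3 libraries, 1 H3K9me3 library and 2 RNA-seq samples. The samples were chosen by cell type and antibody from their labels. For each of 20156 RefSeq genes, the reads of called nucleosomes within 1000 bp of the transcription start site (TSS) were summed, scaled to the summed reads of the library, and set as H3K4me3 over H3K27me3. The series followed the reprogramming of mouse embryonic fibroblasts (MEFs) through partly reprogrammed cells (pre-iPSCs) to iPSCs, and the same libraries of MEFs and pre-iPSCs were used here only to ask where iPSCs differ. The MEFs came from embryos of day 13.5 that were hemizygous for an Oct4-GFP transgenic allele and a Rosa26 allele, from Oct4-GFP males of CBA/CaJ and C57BL/6J background and 129Sv/Jae females. Pre-iPSCs and iPSCs were made from such MEFs with retroviruses that carry the Yamanaka factors, Oct4 among them, so all 3 cell types carried the reporter, and both reprogrammed types also carried retroviral inserts. The study used 2 stable clones of pre-iPSCs and the iPSCs that correspond to them, but the sources used here do not say from which clone a library came. The iPSCs were grown in medium with serum and LIF on a layer of MEFs inactivated with mitomycin C, and pre-iPSCs and iPSCs were kept for 6 passages before RNA-seq. Chromatin of MEFs was digested in another way than that of pre-iPSCs and iPSCs, which touches each comparison with MEFs.

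H3K4me3 is placed by the Set1 and MLL methyltransferase complexes and marks the nucleosomes downstream of the start of active genes and of most promoters rich in CpG. H3K27me3 is placed by Polycomb repressive complex 2 and covers silent genes, above all genes of developmental regulators. In pluripotent cells many of those promoters carry both marks and are called bivalent, while a mark seen in a population can also come from different alleles or cells.

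The sequences just upstream of 4 genes show the kinds of promoter that the comparison separates. Phip stood at the H3K4me3 end, Helt carried both marks, and Fcamr and Slc34a1 stood at the H3K27me3 end. They were chosen after the values were seen. Each line gives the 200 bases before the TSS of the mouse genome build mm9, read 5′ to 3′ on the strand of the gene, with every CG in capitals. None of these stretches overlaps an annotated exon. Phip lies on the minus strand at chr9:82869097-82869296, Helt on the minus strand at chr8:47380026-47380225, Fcamr on the plus strand at chr1:132697279-132697478 and Slc34a1 on the plus strand at chr13:55500809-55501008.
Phip: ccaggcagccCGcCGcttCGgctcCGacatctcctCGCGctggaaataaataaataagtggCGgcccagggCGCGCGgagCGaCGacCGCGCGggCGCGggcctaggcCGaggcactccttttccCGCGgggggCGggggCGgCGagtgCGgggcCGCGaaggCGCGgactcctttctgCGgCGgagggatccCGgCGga
Helt: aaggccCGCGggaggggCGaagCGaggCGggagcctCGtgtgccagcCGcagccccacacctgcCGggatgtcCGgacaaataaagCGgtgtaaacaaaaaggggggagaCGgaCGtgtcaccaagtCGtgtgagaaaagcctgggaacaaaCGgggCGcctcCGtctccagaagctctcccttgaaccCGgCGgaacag
Fcamr: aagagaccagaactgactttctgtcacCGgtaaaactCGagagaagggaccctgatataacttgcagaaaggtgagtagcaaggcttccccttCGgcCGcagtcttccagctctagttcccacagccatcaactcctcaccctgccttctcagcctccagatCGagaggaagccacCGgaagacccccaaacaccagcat
Slc34a1: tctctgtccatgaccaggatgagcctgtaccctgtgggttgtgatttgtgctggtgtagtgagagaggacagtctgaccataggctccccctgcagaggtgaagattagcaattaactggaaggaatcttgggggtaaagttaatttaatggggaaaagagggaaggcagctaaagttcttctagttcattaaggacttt
The stretch of Phip holds 32 CG, that of Helt 18, that of Fcamr 6 and that of Slc34a1 0. CG reads the same on both strands, and 91.8% of the 20156 such stretches hold at least 1 CG, with a median of 9.

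The iPSC libraries of the marks held 13005093 and 12312349 reads in calls for H3K4me3 (replicates 1 and 2), 13951675 and 13535035 for H3K27me3 and 12222861 for H3K9me3. Levels are given as RPKM, reads scaled to the length of the window and the size of the library, and 1 RPKM was 24.6 to 27.9 reads in the H3K4me3 and H3K27me3 libraries. The 9 markers of pluripotent cells, among them Nanog, Zfp42 and Dppa3, were at 11.3 FPKM (RNA fragments scaled to transcript length and library size) or more in both iPSC samples, and their summed level was 1690 and 1502 FPKM against 0.147 and 0.712 in MEFs. All 16 fibroblast markers were also detected at 1 FPKM or more in both iPSC samples, with sums of 369 and 477 FPKM against 12150 and 14158 in MEFs. Reads of feeder cells and of iPSCs cannot be told apart in these samples, and neither can fewer cells with a mark and less of it per cell. The 2 H3 libraries of iPSCs, used as a view of nucleosome density, differed in how much of them lay in the windows (2.315% and 1.353%, where the windows make 1.519% of the genome).

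In iPSCs the TSS windows held far more H3K4me3 than H3K27me3. The windows took 4.393% and 3.967% of the H3K4me3 reads, 1.662% and 1.563% of the H3K27me3 reads and 1.488% of the H3K9me3 reads. The median window was at 1.11 and 1.01 RPKM of H3K4me3 and at 0.322 and 0.295 RPKM of H3K27me3. Above 1 RPKM, the level above which a mark was counted as present, there were 10969 and 10669 windows for H3K4me3 but 1034 and 715 for H3K27me3. By this level H3K27me3 at gene starts was a small set on a low background. The H3 libraries had 1792 and 10 windows above the same level, so passing it is not by itself evidence of a mark. The 2 H3K27me3 libraries ranked the windows alike (Spearman's rho 0.801 across 17346 genes, 0.741 for the H3K4me3 libraries, with genes that are not independent replicates). Their rho with H3K9me3 was 0.666 and 0.633, so part of this order is shared with another antibody.

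By presence in both replicates, 8493 genes (42.1%) had H3K4me3 only, 205 (1.02%) had both marks, 61 (0.303%) had H3K27me3 only and 7404 (36.7%) had neither. The other 3993 genes (19.8%) differed between the replicates. The size of the set with both marks depended on the level: 3 genes had both above 2 RPKM and 4009 above 0.5 RPKM. It fell to 25 genes when the reads were scaled to the uniquely mapped reads of each library instead of the reads in calls. With calls of at least 2 reads it rose to 775 genes. Without 1 library it was 234 to 570 genes, as this drops a condition of the rule. With windows of 500 bp 148 genes had both marks, of which 76 were among the 205. Just inside the level were Sox10 (H3K27me3 1.00 and 1.03 RPKM), Car12 and Inpp5j, and just outside it Lrg1 (H3K4me3 0.999 and 1.26 RPKM), Grrp1 and Mrgprh.

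**Figure D1:**
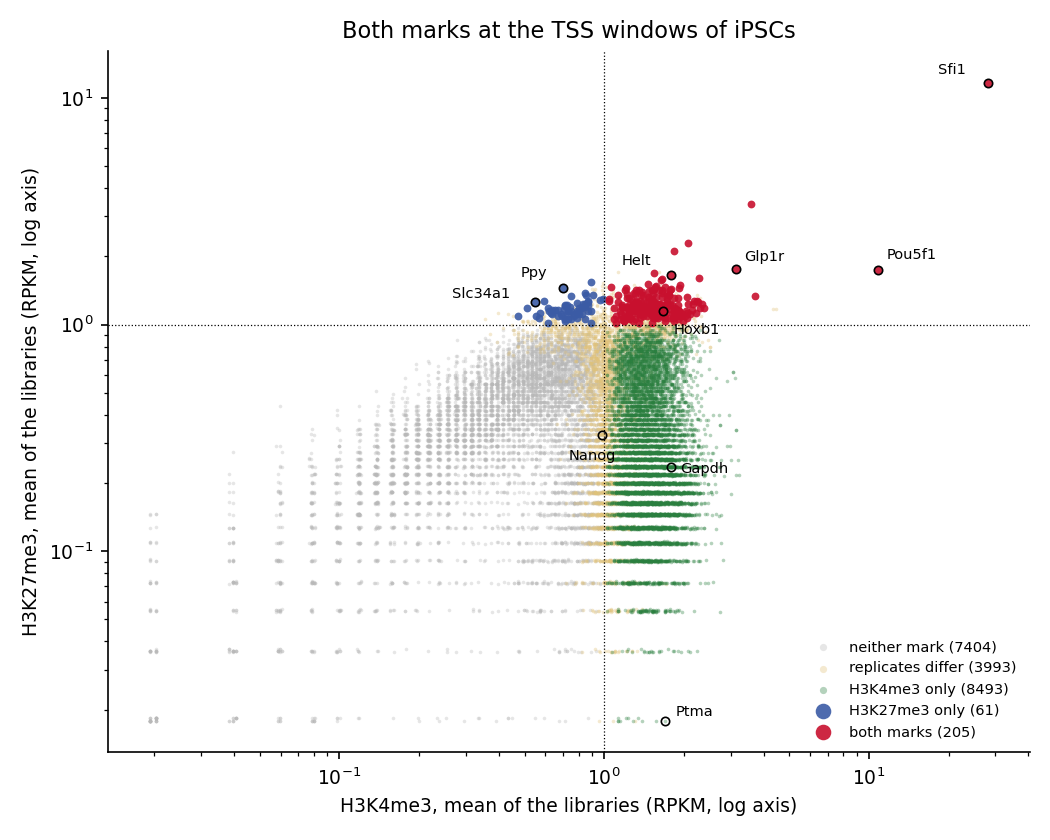
Mean of the 2 H3K4me3 libraries (x axis, RPKM, log axis) against the mean of the 2 H3K27me3 libraries (y axis, RPKM, log axis) at the TSS windows of iPSCs, 1 point per gene, coloured by the state in both replicates. The 8493 windows with H3K4me3 only form a cloud at the lower right, the 205 with both marks lie above 1 RPKM on both axes, and 474 windows at 0 in both libraries of either mark cannot be drawn on log axes.

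The test across genes gave the 2 ends. Of 17346 genes tested, 11006 had at least 2-fold more H3K4me3 than H3K27me3 and 135 at least 2-fold more H3K27me3, at an adjusted p below 0.05 (edgeR's quasi-likelihood test, Benjamini-Hochberg). These are 63.4% and 0.778% of the genes tested, with a median log2 ratio of 1.63. With TMM scaling, which moves the median by -1.56 to 0.07, the counts were 4826 and 4472, so that 51.9% of the calls were on the H3K4me3 side against 98.8%. The ratio of 1 antibody to another thus has no natural zero, and each group below is read against the median of all genes. A group whose median lies under 1.56 falls below 0 with TMM scaling. The study calls its replicates biological but the sources do not tie a library to a culture or clone, so p-values measure the spread between these libraries, which may be technical.

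The genes that led the H3K4me3 end had 0 to 2 reads of H3K27me3 over both libraries. Phip, a bromodomain protein that reads histone methylation, had 1.23 and 1.30 RPKM of H3K4me3 and no H3K27me3 read in either library (32 and 32 reads against 0 and 0). Cnot6l, a catalytic subunit of the CCR4-NOT deadenylase, had 1.31 and 1.22 RPKM and again no H3K27me3 read. Set against a floor of 3 reads over both H3K27me3 libraries the ratio was 23.2 at each of these genes. With the counting error of both marks the lower end of the exact 95% interval was 18.3-fold. Ptma, the gene of prothymosin alpha, had 2.34 and 1.06 RPKM of H3K4me3 and 1 H3K27me3 read, a ratio of 94.5 with an exact 95% interval of 16.5 to 3770. Hnrnpa3, an RNA-binding protein, and Orc4, a subunit of the origin recognition complex, had ratios of 86.9 and 76 on 1 read each. Flcn, the tumour suppressor folliculin, Spata5, an AAA ATPase, and Mnt, a MAX-binding repressor, gave 73.8, 67.3 and 61.9, the last on 2 reads with an interval of 16.7 to 517. The intervals cover counting error only. These 8 genes were chosen for the largest fitted ratios, which favours windows whose H3K27me3 reads were few by chance. The intervals take no account of that choice, so they do not bound the ratios of genes chosen in this way. H3K9me3 was between 0.0818 and 0.532 RPKM at these 8 genes, and all 8 were transcribed, from 1.29 and 2.51 FPKM for Cnot6l to 2850 and 1998 FPKM for Ptma, whose family includes processed copies. The ratio of observed to expected CpG in the window ran from 0.475 (Orc4) to 1.01 (Hnrnpa3) and was above the median of all genes, 0.502, at each of them except Orc4.

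The genes named at the H3K27me3 end are products of differentiated tissues with few CpG at their starts, and they were silent or nearly so in iPSCs. Fcamr, a receptor for IgA and IgM, had 0.538 and 0.406 RPKM of H3K4me3 and 1.04 and 1.14 RPKM of H3K27me3, a log2 ratio of -1.20 (adjusted p 0.00329). Slc34a1, the phosphate transporter of the proximal tubule, had 0.692 and 0.406 RPKM against 1.22 and 1.29 RPKM (log2 ratio -1.18, adjusted p 0.00319). Cst7 (cystatin F of leukocytes), Tnnt3 (troponin T of fast skeletal muscle) and Ppy (pancreatic polypeptide) followed with -1.20, -1.10 and -1.06. H3K9me3 was at 0.818 RPKM at both Fcamr and Slc34a1, 0.409 at Cst7, 1.14 at Tnnt3, about as high as its H3K27me3 in replicate 1 (1.15 RPKM), and 0.654 at Ppy. That H3K27me3 lay above H3K4me3 in these 5 genes follows from how they were chosen. All except Tnnt3, at 0.359 and 0 FPKM, were listed at 0 FPKM in both iPSC samples. Only these 5 of the 135 genes reached 1 RPKM of H3K27me3 in both libraries, and 115 of the 135 had neither mark. The medians of the 135 were 0.269 and 0.284 RPKM of H3K4me3, 0.609 and 0.665 RPKM of H3K27me3 and 0.45 RPKM of H3K9me3. The filter on low counts keeps a window on the reads of either mark, so genes this low in H3K4me3 could enter the test through H3K27me3. Of the 135 genes, 99 (73.3%) were at 0 FPKM in both samples, against 12% of the genes tested. Silence was also common in the class to which most of them belong. Of the 7404 genes with neither mark, 4060 and 3870 were at 0 FPKM in the 2 samples, against 105 and 108 of the 135.

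The H3K27me3 end was much less stable than the H3K4me3 end. DESeq2 called 9195 and 2 genes. With windows of 500 bp 46 genes were called at the H3K27me3 end, of which 18 were among the 135, and without 1 of the 4 libraries the count was 108 to 155, with 49 to 62 of the 135 among them. At the H3K4me3 end, leaving out a library gave 10639 to 11074 genes.

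Genes with both marks had intermediate CpG content and low transcript levels. In these 205 genes the medians were 1.65 and 1.42 RPKM of H3K4me3 and 1.18 and 1.18 RPKM of H3K27me3. The middle 50% of the genes lay between 1.07 and 1.33 RPKM of H3K27me3 in replicate 1 and between 1.07 and 1.29 RPKM in replicate 2, so that most were close to the level that defines the set. Their median transcript level was 0.142 and 0.161 FPKM, against 7.33 and 7.17 FPKM in genes with H3K4me3 only. In all, 157 of the 205 (76.6%) were under 1 FPKM in both samples, against 43.7% of all genes. The set also had more H3K9me3 (median 0.695 against 0.327 RPKM over all genes), and 28 of its genes (13.7%) were above 1 RPKM of H3K9me3, against 215 (1.07%) of all.

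Nucleosome density went with membership in this set, and its part in the result was not tested. The median H3 level of the 205 windows was 1.13 and 0.449 RPKM in the 2 H3 libraries, against 0.542 and 0.319 RPKM over all genes. H3K4me3 exceeded both H3 libraries in both replicates at 155 of the 205 (75.6%), H3K27me3 at 107 (52.2%) and both marks at 98 (47.8%, against 5.73% of all genes). The rule of the set asks for more than 1 RPKM of each mark, so it raises these shares by itself. Without the 6 windows above 1 RPKM in both H3 libraries (Sfi1, Heatr7b1, Ugt1a1, Pou5f1, Trpm8 and 4931408C20Rik) 199 genes remained.

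The genes with the most of both marks differed in how high the other antibodies were. Sfi1, a centrosome protein gene, had 32.4 and 23.8 RPKM of H3K4me3 and 14.4 and 8.90 RPKM of H3K27me3, but it also had 32.5 RPKM of H3K9me3 and 16.2 and 10.8 RPKM of H3. Heatr7b1, Ugt1a1 and Trpm8, which lie near each other on chromosome 1, likewise had 1.76 to 3.03 RPKM of H3K9me3 and 1.30 to 2.37 RPKM of H3. The reads at these 4 windows, and at that of Pou5f1, were thus high with every antibody. Helt, a basic helix-loop-helix regulator of midbrain neurons, had 1.96 and 1.62 RPKM of H3K4me3, 1.72 and 1.59 RPKM of H3K27me3, 1.19 RPKM of H3K9me3, 1.42 and 0.449 RPKM of H3 and 0 FPKM in both samples. Accn4, an acid-sensing ion channel, had 1.84 and 1.46 RPKM of H3K4me3 and 1.61 and 1.55 RPKM of H3K27me3, with 1.27 RPKM of H3K9me3, also at 0 FPKM. Glp1r, the receptor of the incretin GLP-1, had 3.54 and 2.76 RPKM of H3K4me3 and 1.47 and 2.03 RPKM of H3K27me3, beside 1.14 RPKM of H3K9me3 and 2.30 and 0.767 RPKM of H3, the first of these above its H3K27me3. Cpne7, a calcium-binding copine with 1.35 RPKM of H3K9me3, and Acta1, the skeletal muscle actin, complete the list, the latter at 2.04 and 8.40 FPKM. H3 was at 1.48 and 0.405 RPKM at Accn4, 1.39 and 0.557 RPKM at Cpne7, and 1.44 and 0.529 RPKM at Acta1. At each of these genes H3 of replicate 1 exceeded at least 1 library of a mark. Of the 10 genes highest in their lower mark, only Pou5f1 was called for the ratio. Over the 205 the call was made for Pou5f1, Dll4 (log2 ratio 1.02), the Notch ligand, and Sema5b (1.48), an axon guidance protein. Dll4 and Sema5b lie under the median shift that TMM scaling gives to all genes.

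**Figure D2:**
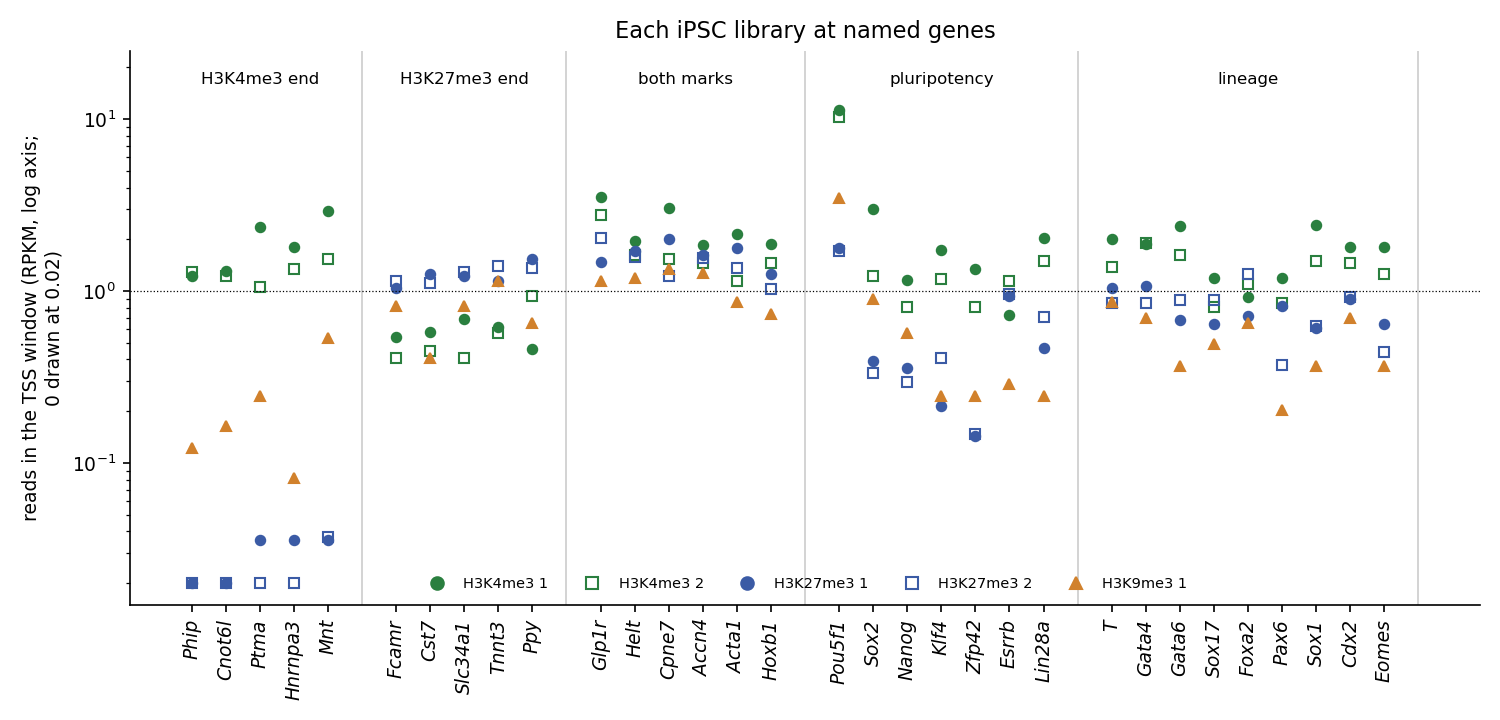
Reads in the TSS window of each iPSC library (y axis, RPKM, log axis, 0 drawn at 0.02) for named genes, 1 symbol per library and antibody, with the level of 1 RPKM dotted. At Phip and Cnot6l both H3K27me3 symbols sit at 0, at Fcamr they lie above those of H3K4me3, and at Pou5f1 all symbols are above 1 RPKM.

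The Hox genes, which give the body axis its segment identities, were the list with the largest share of both marks: 13 of 39 (33.3%), against 1.02% of all genes. These were Hoxa3, Hoxa7, Hoxa9, Hoxb1, Hoxb5, Hoxb7, Hoxb9, Hoxb13, Hoxc6, Hoxc8, Hoxc10, Hoxc12 and Hoxd12. Their H3K4me3 was 1.11 to 2.19 RPKM (median 1.65) in replicate 1 and 1.18 to 1.95 (median 1.46) in replicate 2. Their H3K27me3 was 1.00 to 1.40 RPKM (median 1.15) and 1.03 to 1.37 RPKM (median 1.18). The 2 marks overlapped in range, and in 12 of the 13 each mark exceeded both H3 libraries, against 98 of the 205 (47.8%). The rule of the set asks for more than 1 RPKM of each mark, so it favours both the overlap and the excess over H3 by itself. Transcript levels of the 13 ran from 0 to 3.42 FPKM and from 0.0395 to 3.67 FPKM, with Hoxb9 at 2.92 and 3.67 FPKM.

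The clusters differed in how many genes fell in each class, on 9 to 11 genes each, which was not tested. Hoxb had 5 genes with both marks, 1 with H3K27me3 only (Hoxb3, at 1.04 and 1.25 RPKM) and none with H3K4me3 only among its 10 genes. Hoxc had 4 with both marks and none with H3K4me3 only among 9. Hoxa had 3 with both marks and 4 with H3K4me3 only among 11, and Hoxd 1 and 4 among 9. Over all genes 1.02% had both marks and 42.1% H3K4me3 only. These counts turn on the level. Hoxa10 missed both marks at 0.997 RPKM of H3K27me3 in replicate 2, and Hoxd1, counted with H3K4me3 only, had 0.967 and 0.923 RPKM of it. Hoxb1, a gene of hindbrain patterning, had 1.88 and 1.46 RPKM of H3K4me3 against 1.25 and 1.03 RPKM of H3K27me3 (log2 ratio 0.55, adjusted p 0.162), at 1.19 and 1.31 FPKM. Over the 39 genes, 8 were called at the H3K4me3 end and 0 at the H3K27me3 end, with a median log2 ratio of 0.547 against 1.63. Of all genes tested, 63.4% and 0.778% were called at these ends. No Hox gene had neither mark, and 17 differed between replicates.

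Regulators of the germ layers were also low in ratio, with fewer genes over the level. The counts below stand against 63.4% and 0.778% of all genes tested at the H3K4me3 and H3K27me3 ends. Both marks made 8.7% of the ectoderm, 2.22% of the mesoderm and 7.69% of the endoderm and trophoblast list, against 1.02% of all genes. The mesoderm share rests on 1 gene. Of 46 ectoderm regulators, 19 were called at the H3K4me3 end (median 0.84), and Pax2, Lhx3, Olig2 and Emx1 had both marks. Pax2, a regulator of kidney and midbrain, had 2.38 and 1.50 RPKM of H3K4me3 and 1.11 and 1.07 RPKM of H3K27me3, and Lhx3, a motor neuron factor, 1.34 and 1.14 RPKM and 1.29 and 1.33 RPKM. Of 45 mesoderm regulators, 14 were called (of 44 tested, median 0.863) and only Nkx2-5, the cardiac homeobox factor, had both marks, at 1.58 and 1.01 RPKM and 1.18 and 1.11 RPKM. Of 26 endoderm and trophoblast regulators, 7 were at the H3K4me3 end and 1, the fetal serum protein Afp, at the H3K27me3 end (median 0.729). Ascl2, a trophoblast regulator, and Nkx2-3, a factor of gut and spleen, had both marks, and Ins2, an insulin gene, had H3K27me3 only. All these medians lie below that of all genes, and all are below 0 with TMM scaling.

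Single regulators often missed the level in 1 or both H3K27me3 libraries. T (Brachyury), of early mesoderm, had 2.00 and 1.38 RPKM of H3K4me3 and 1.04 and 0.849 RPKM of H3K27me3. Gata4, of endoderm and heart, had 1.88 and 1.91 RPKM and 1.07 and 0.849 RPKM. Cdx2, of trophectoderm and hindgut, had 1.81 and 1.46 RPKM and 0.896 and 0.923 RPKM. Their transcripts were at 0.234 and 0.576 FPKM (T), 2.24 and 1.67 FPKM (Gata4) and 0 and 0.0841 FPKM (Cdx2). Their log2 ratios of 0.84, 0.97 and 0.84 passed the p threshold (adjusted p 0.0327, 0.0129 and 0.0293, edgeR) but stayed under 2-fold, so none was called. Foxa2, of endoderm, overlapped between the marks (0.922 and 1.10 RPKM against 0.716 and 1.26 RPKM). Sox17, also of endoderm, had a log2 ratio of 0.39 (adjusted p 0.317) and Pax6, of eye and forebrain, 0.77 (adjusted p 0.0588). Those called were Sox1 (1.66, neural), Eomes (1.49, mesendoderm), Gata6 (1.35, primitive endoderm) and Hoxd13 (1.01, distal limb), of which Eomes, Gata6 and Hoxd13 lie under the shift that TMM scaling gives to all genes and so fall below 0 with it. Hoxd11 was at 0.43 (adjusted p 0.279).

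Among signalling ligands, Wnt genes had both marks more often than Fgf or Bmp and Gdf genes, a difference that was not tested. Wnt1, Wnt7b, Wnt9b and Wnt10b, 4 of 19 Wnt ligands, had both marks and Wnt8b had H3K27me3 only, with 4 genes called at the H3K4me3 end and a list median of 0.679. Wnt10b had 1.92 and 1.46 RPKM of H3K4me3 and 1.68 and 1.25 RPKM of H3K27me3, beside 1.60 and 0.348 RPKM of H3, and in only 1 of the 4 genes, Wnt9b, did each mark exceed both H3 libraries. None of 22 Fgf and 20 Bmp and Gdf ligands had both marks. In those lists 9 of 22 and 9 of 19 genes tested were called at the H3K4me3 end, with medians of 0.867 and 0.902. Of all genes tested 63.4% were called there, with a median of 1.63, and 1.02% of all genes had both marks.

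**Figure D3:**
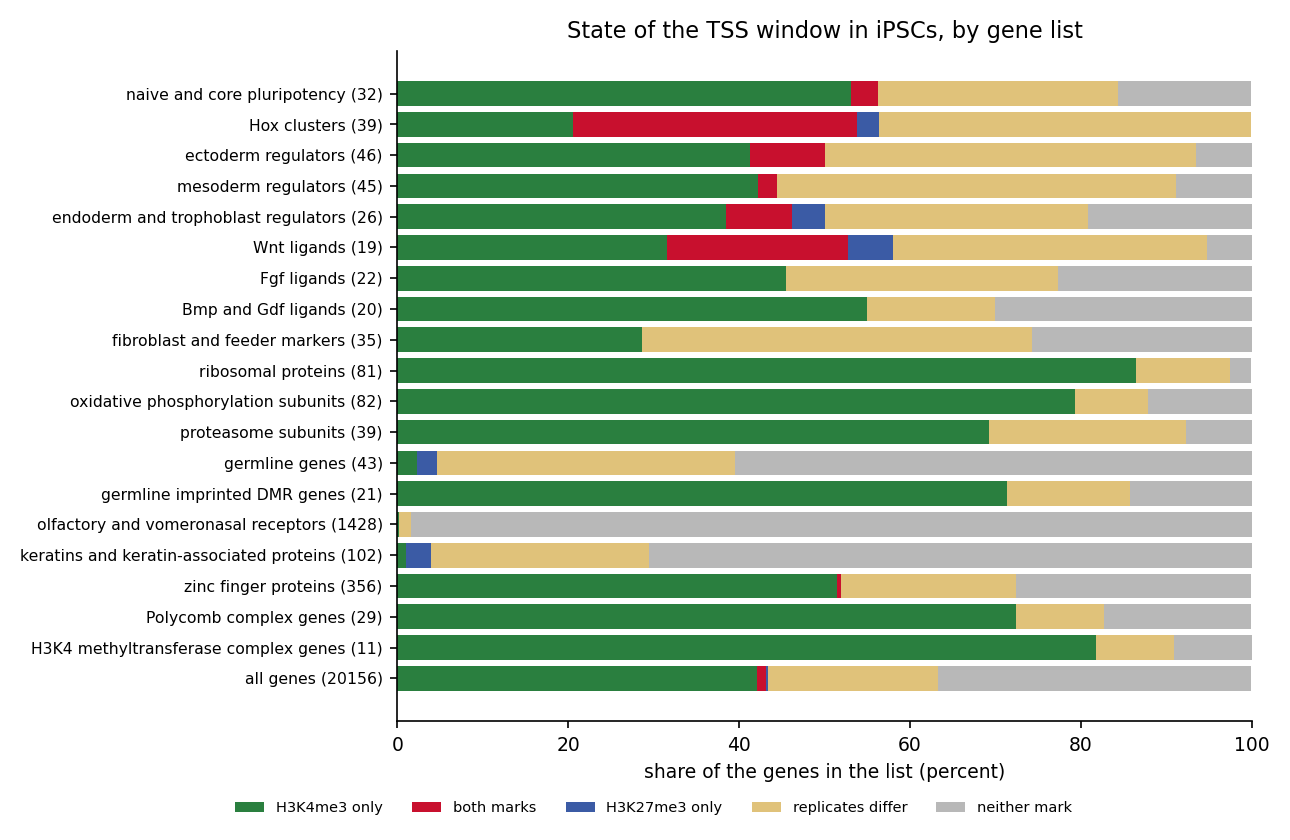
Share of the genes of each list (x axis, percent, bars start at 0) by the state of the TSS window in both iPSC replicates, with the number of genes beside each list. Both marks make 33.3% of the Hox bar and 21.1% of the Wnt bar against 1.02% of all genes, and 86.4% of the ribosomal protein bar is H3K4me3 only.

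Pluripotency genes stood on the H3K4me3 side, though with differences among them. Of 32 genes, 27 of 31 tested were called at the H3K4me3 end and 0 at the other (63.4% and 0.778% of all genes tested), with a median log2 ratio of 2.38 against 1.63. All 32 were at 1 FPKM or more in both samples. Utf1 (3.12), Zfp42 (2.86) and Sox2 (2.53) had log2 ratios above that median, with H3K27me3 at 0.107 and 0.148 RPKM, 0.143 and 0.148 RPKM, and 0.394 and 0.332 RPKM. Tcfcp2l1 (2.36) and Klf4 (2.22) were called too. So were Lin28a (1.60) and Nanog (1.58), just under the median of all genes, 1.63, and Dppa3 (1.17), which falls below 0 with TMM scaling. Myc, a reprogramming factor outside the list, was called at 1.63. The Yamanaka factors include Sox2, Klf4 and Myc, and whether reads of retroviral copies entered their windows or FPKM was not tested. Nanog had 1.15 and 0.812 RPKM of H3K4me3 and 0.358 and 0.295 RPKM of H3K27me3 at 49.5 and 73.6 FPKM. Esrrb, an orphan receptor of the naive state, was not called: its marks overlapped, at 0.73 and 1.14 RPKM of H3K4me3 and 0.931 and 0.96 RPKM of H3K27me3, with 52.5 and 52.5 FPKM. The Esrrb window starts at the annotated TSS of 1 RefSeq transcript, and other starts were not used here.

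Pou5f1, the gene of Oct4, was the 1 pluripotency gene with both marks in both replicates. It had 11.3 and 10.3 RPKM of H3K4me3 and 1.79 and 1.70 RPKM of H3K27me3, a log2 ratio of 2.63 (adjusted p 1.6e-06), at 586 and 397 FPKM. H3K9me3 was at 3.48 RPKM and H3 at 5.80 and 2.94 RPKM in the same window, so H3K27me3 was below both H3 libraries. The reporter allele and the Oct4 retrovirus hold Oct4 sequence, and their reads cannot be told apart from those of the gene. In MEFs the window gave 4.58 and 0.118 RPKM of H3K4me3 and 3.93 and 1.15 RPKM of H3K27me3, so the MEF replicates differed widely there.

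Ribosomal protein genes and other genes of general function lay far on the H3K4me3 side. Ribosomal protein genes were called in 79 of 80 tested (median log2 ratio 3.44), subunits of oxidative phosphorylation in 78 of 81 (2.82) and proteasome subunits in 35 of 38 (2.90). Ribosomal protein genes have many processed copies, whose part in these counts was not tested. Genes of the Polycomb complexes, of which only some write H3K27me3, were called in 26 of 29 (2.58), and genes of the H3K4 methyltransferase complexes in 10 of 11 (3.36). Actb had 1.58 and 1.46 RPKM of H3K4me3 against 0.143 and 0.0738 RPKM of H3K27me3 (3.74) and Gapdh 1.96 and 1.62 RPKM against 0.287 and 0.185 RPKM (2.90). Zinc finger genes were called in 291 of 324 (2.30), with Zfp503 and Zfp641 carrying both marks. Genes of germline imprinted regions, called in 15 of 20 (1.88), were near the 63.4% and the median of 1.63 of all genes. Peg3, which is imprinted, was called at 2.53, while Snrpn, at 69.9 and 65.8 FPKM, had 0.231 and 0.244 RPKM of H3K4me3 at the TSS used and was too low for the test.

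Receptor genes of sensory neurons had little of either mark, and keratin genes were low in ratio with more reads of both. Of 1428 olfactory and vomeronasal receptor genes, which are used in sensory neurons, 1406 (98.5%) had neither mark. Among the 367 with enough reads, 5 were called at the H3K4me3 end and 27 at the H3K27me3 end, with a median log2 ratio of -0.293. Of all genes tested, 63.4% and 0.778% were called. A window passed the filter on the reads of either mark, so these calls and this median depend in part on which mark let it in. The medians over all 1428 were 0.231 and 0.203 RPKM of H3K4me3, 0.251 and 0.258 RPKM of H3K27me3 and 0.286 RPKM of H3K9me3, so that the 3 antibodies gave like levels. Keratin genes, of skin and hair, had medians of 0.537 and 0.572 RPKM of H3K27me3, against 0.322 and 0.295 RPKM over all genes. Of 102, 5 (4.9%) were above 1 RPKM in both H3K27me3 libraries, against 1.68% of all genes, and 3 of them had H3K27me3 only. At the H3K4me3 end 1 of 82 tested was called and at the H3K27me3 end 6, to be read against the same 63.4% and 0.778%, with a median log2 ratio of -0.263.

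Germline and fibroblast genes stood between. Of 43 germline genes, 26 (60.5%) had neither mark and 5 of 41 tested were at the H3K4me3 end (median 0.414), although 58.1% and 60.5% were at 1 FPKM or more. Ddx4, a helicase of germ cells, had 0.807 and 1.01 RPKM of H3K4me3 and 0.501 and 0.812 RPKM of H3K27me3 at 6.13 and 4.64 FPKM, and Dazl, an RNA-binding protein of germ cells, 0.769 and 0.446 RPKM and 0.466 and 0.222 RPKM. Neither was called. Sycp1, of the synaptonemal complex, had H3K27me3 only. Of 35 fibroblast genes, 8 of 33 tested were at the H3K4me3 end (median 0.697) and none had both marks. For the germline and fibroblast lists these calls stand against 63.4% of all genes tested. Only 1.02% of all genes had both marks, so none in a list this short says little. Col1a1, a collagen of fibroblasts, had 0.845 and 1.46 RPKM of H3K4me3 and 0.967 and 0.702 RPKM of H3K27me3 at 74.7 and 70.6 FPKM, and Prrx1, a mesenchymal homeobox gene, 1.19 and 1.66 RPKM and 0.752 and 0.849 RPKM. Neither was called, while Twist1 (1.67) and Tgfb1 (1.38) were, the latter at -0.18 with TMM scaling. Whether these reads came from the feeder layer was not tested.

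The 61 genes with H3K27me3 only held several cell-type products that a reader may know, named here after their values were seen. Shh, the hedgehog ligand, had 0.999 and 0.974 RPKM of H3K4me3, just under the level, and 1.22 and 1.37 RPKM of H3K27me3 at 0 FPKM. Th, the rate-limiting enzyme of dopamine synthesis, had 0.807 and 0.974 RPKM against 1.36 and 1.74 RPKM. Gfap, the filament protein of astrocytes, had 0.961 and 0.649 RPKM against 1.07 and 1.29 RPKM. H3 of replicate 1 was at 1.39 RPKM at Th and 1.23 RPKM at Gfap, above the first H3K27me3 library of each. At Shh it was at 0.77 RPKM, below both H3K27me3 libraries. The median H3 of the class was 1.04 and 0.623 RPKM, against 0.542 and 0.319 RPKM over all genes. None of the 3 was called, and the rule of the class itself sets H3K27me3 above H3K4me3. Over the 61 the medians were 0.769 and 0.731 RPKM of H3K4me3, 1.15 and 1.11 RPKM of H3K27me3 and 0.777 RPKM of H3K9me3, and the median transcript level was 0 in both samples.

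Around the TSS the marks had different shapes. In genes with H3K4me3 only, H3K4me3 peaked at 3.46 and 2.46 RPKM 150 bp downstream of the TSS, over 0.618 and 0.711 RPKM at 2 to 5 kb, and dropped to 0.959 and 0.759 RPKM in the 200 bp before the TSS. H3K27me3 was lower within 1 kb of these starts (0.349 and 0.312 RPKM) than at 2 to 5 kb (0.491 and 0.455 RPKM). In genes with both marks, H3K4me3 peaked at 2.66 and 2.11 RPKM and H3K27me3 at 1.81 and 1.61 RPKM, but the replicates placed these peaks apart, 350 and 950 bp downstream for H3K4me3, and 950 bp downstream and at -650 bp for H3K27me3. There H3K27me3 was at 1.32 and 1.26 RPKM within 1 kb and at 1.01 and 0.991 RPKM at 2 to 5 kb, against 0.469 and 0.455 RPKM over all genes. The raised flank was not particular to H3K27me3: at 2 to 5 kb of the same genes H3K4me3 was at 0.978 and 1.01 RPKM (0.529 and 0.582 over all genes), H3K9me3 at 0.777 RPKM (0.427) and H3 at 0.952 and 0.613 RPKM (0.529 and 0.44). These profiles are means over the 205 genes, which include Sfi1 and the other windows that were high with every antibody. Within 1 kb of these genes H3K9me3 had a mean of 0.917 RPKM and a median of 0.695 RPKM. How far those windows shape the peaks and flanks was not tested. The H3 libraries differed in this view too: in genes with H3K4me3 only, replicate 1 peaked at 1.36 RPKM 150 bp downstream, while replicate 2 had 0.299 RPKM within 1 kb and 0.482 RPKM at 2 to 5 kb. The levels within 1 kb chose the classes, so a centre above or below its flank is partly built in by that choice. The positions of the peaks and the outer levels were not used to choose them.

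**Figure D4:**
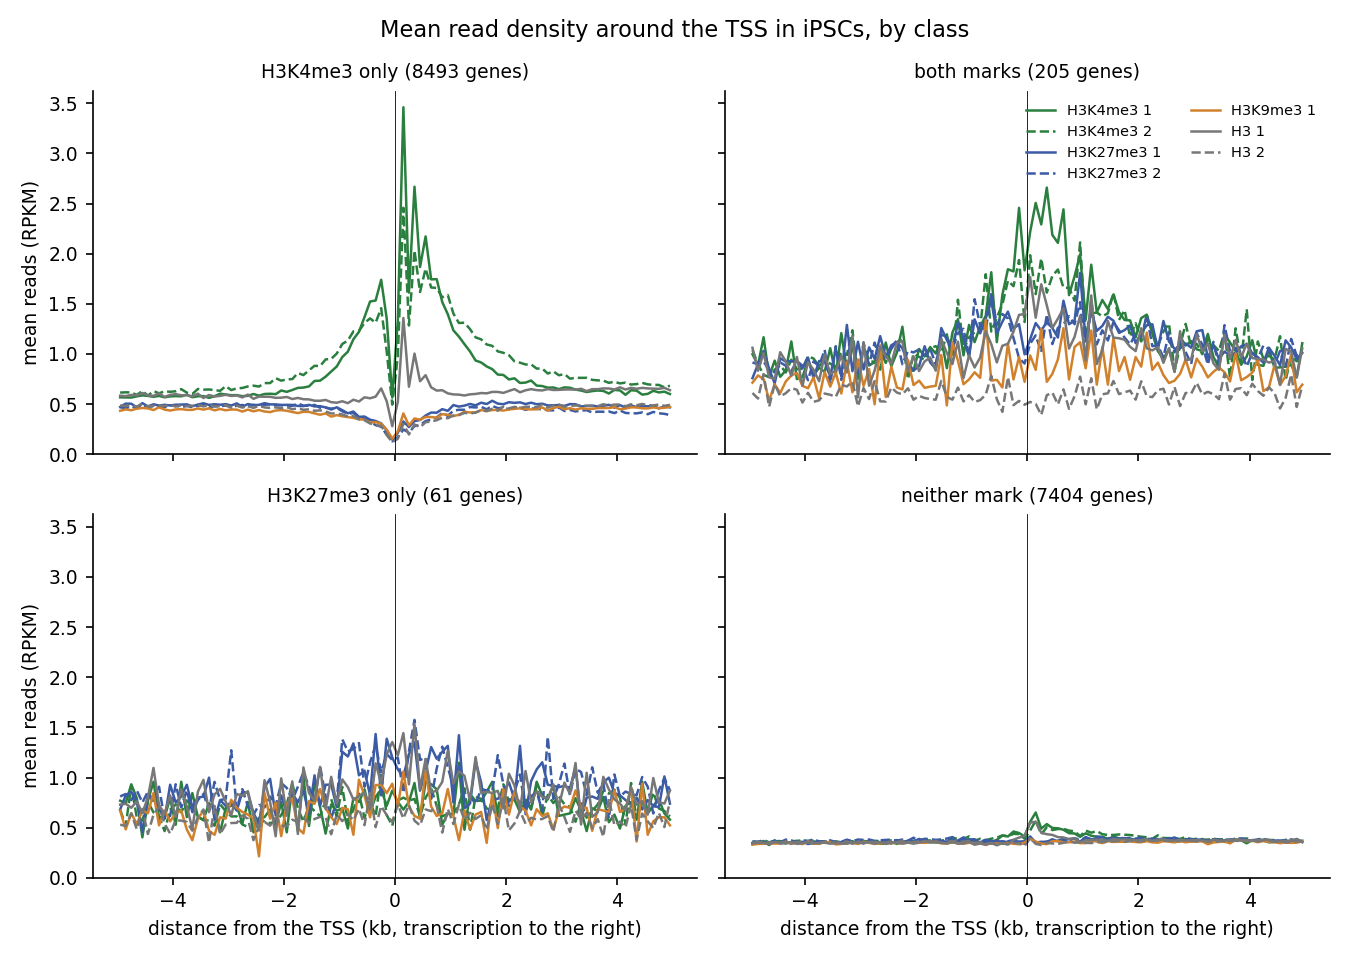
Mean reads (y axis, RPKM) by distance from the TSS (x axis, kb, transcription to the right, bins of 100 bp) for 4 classes of genes in iPSCs, 1 line per library and antibody. In the 8493 genes with H3K4me3 only, H3K4me3 has a peak at 150 bp of 3.46 and 2.46 RPKM with a gap before the TSS, and in the 205 genes with both marks H3K27me3 and H3K4me3 average 0.978 to 1.01 RPKM at 2 to 5 kb. The 205 genes include Sfi1 and the other windows that were high with every antibody.

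Transcript levels, CpG content and H3K9me3 changed along the ratio. In the 136 genes with a log2 ratio below -1 the median transcript level was 0 in both samples. It was 0.169 and 0.202 FPKM in the 3987 genes with a ratio of 0 to 1, 8.83 and 8.78 FPKM in the 4318 genes from 2 to 3, and 20.6 and 22.2 FPKM in the 472 genes at 4 or more. Across the 17346 genes Spearman's rho of the ratio was 0.765 and 0.775 with the transcript levels and 0.706 with observed over expected CpG. With H3K9me3 it was -0.613: the median of H3K9me3 was 0.45 RPKM below -1, highest at ratios of -1 to 0 (0.572 RPKM) and lowest at 4 or more (0.225 RPKM). H3K27me3 and H3K9me3 themselves went together (rho 0.666 and 0.633), over windows that also share nucleosome density, mappability and base composition. These are descriptions across genes, not tests.

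The classes also differed in CpG content. The 200 bases before the TSS held a median of 16 CG in genes with H3K4me3 only, 11 in genes with both marks, 3 in genes with H3K27me3 only and 2 in genes with neither mark. At least 10 CG were present in 80.4%, 58%, 4.92% and 13% of them, against 49.5% of all genes, and in none of the 135 genes at the H3K27me3 end. Genes with both marks were thus nearer to the H3K4me3 class than to the H3K27me3 class in CpG.

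**Figure D5:**
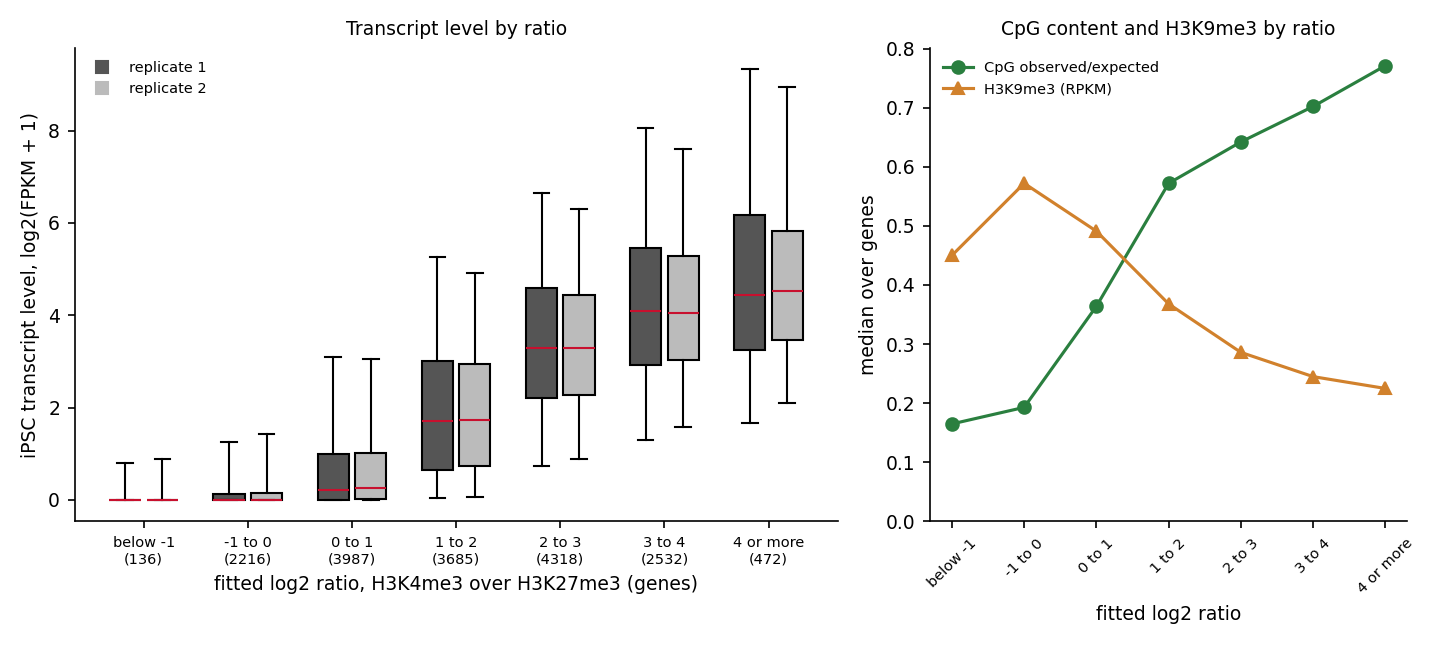
Left, transcript level of iPSCs (y axis, log2(FPKM + 1), boxes over genes for replicates 1 and 2) by the fitted log2 ratio of H3K4me3 over H3K27me3 (x axis, with gene numbers). Right, median CpG observed over expected and median H3K9me3 (RPKM) in the same bins, where CpG rises from 0.165 to 0.771 and H3K9me3 falls to 0.225 in the highest bin. TMM scaling lowers the ratios by nearly the same amount, with a median shift of -1.56.

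To ask where iPSCs differ from the cells they came from, the ratio was compared with that of MEFs in 1 model of all 12 libraries of both marks. The log2 ratio was higher in iPSCs at 682 and lower at 2360 of 18425 genes tested, which are 3.7% and 12.8%, with a median difference of -0.588 that TMM scaling moves by 0.542 (2095 and 1090 genes). The counts were 99 and 592 with DESeq2 and 105 and 289 with windows of 500 bp, and as low as 304 (without MEF H3K27me3 replicate 2) and 1078 (without iPSC H3K27me3 replicate 1) when 1 library was left out. Of the 32 pluripotency genes 22 were higher in iPSCs and 2, Klf4 and Tbx3, were lower, and Myc, outside the list, was lower too (-2.38, adjusted p 0.00714). L1td1, an RNA-binding protein of stem cells, had 1.65 and 1.66 RPKM of H3K4me3 in iPSCs against 0.624 and 0.315 RPKM in MEFs, and 0.179 and 0.0738 RPKM of H3K27me3 against 0.823 and 0.821 RPKM. Its difference of log2 ratios was 4.47 (adjusted p 4.15e-08), followed by F2 (prothrombin) with 4.21, Sall4 with 4.04, Tdgf1 (Cripto) with 3.83 and Gpr1 with 3.68. Sall4, a zinc finger factor of pluripotency, had H3K27me3 of 1.16 and 1.02 RPKM in MEFs and 0.143 and 0.148 RPKM in iPSCs, and Tdgf1, a Nodal co-receptor, 0.935 and 0.821 RPKM and 0.251 and 0.111 RPKM. Leaving out 1 library gave 3.30 to 5.21 over these 5 genes. None of the 5 was called against pre-iPSCs, where the differences were -0.18 (L1td1), 0.14 (F2), 0.27 (Sall4), -0.53 (Tdgf1) and 2.04 (Gpr1), with adjusted p from 0.27 to 0.977. L1td1 in pre-iPSCs had 1.67 and 1.57 RPKM of H3K4me3 and 0.14 and 0.0756 RPKM of H3K27me3, close to its levels in iPSCs.

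Fibroblast genes moved the other way: 30 of 35 had a lower ratio in iPSCs, against 12.8% of all genes tested. Col1a1 had 2.08 and 2.05 RPKM of H3K4me3 and 0.15 and 0.164 RPKM of H3K27me3 in MEFs (difference of log2 ratios -3.22, adjusted p 1.96e-05). The genes with the largest fitted fall had no H3K27me3 read in either MEF library, so no fold is given. They were Zfyve16 (adjusted p 3.07e-05), a FYVE domain protein, Zfp948 (0.000123), Gapdh (0.000341), Brd2 (0.000643), a BET bromodomain protein, and Slc25a28 (0.000682), a mitochondrial iron carrier. At Brd2 H3K4me3 was 1.19 and 1.22 RPKM in iPSCs and 2.41 and 2.28 RPKM in MEFs, with 0.251 and 0.111 RPKM of H3K27me3 in iPSCs. Over the 2360 genes the median of H3K27me3 was 0.394 and 0.369 RPKM in iPSCs and 0.112 and 0.131 RPKM in MEFs, and that of H3K4me3 was 1.31 and 1.22 RPKM in iPSCs and 2.37 and 1.85 RPKM in MEFs. The other digestion of MEF chromatin cannot be told apart from the cell type.

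Of 39 Hox genes 0 had a higher ratio in iPSCs than in MEFs and 3 a lower one, where 3.7% and 12.8% of all genes tested were called, with a median difference of -0.345 against -0.588 over all genes. The 3 were Hoxa3 (-2.44), Hoxc6 (-1.99) and Hoxb5 (-1.62), all among the 13 with both marks in iPSCs. Hoxa3 had 1.18 and 1.18 RPKM of H3K27me3 in iPSCs and 0.337 and 0.361 RPKM in MEFs. H3K27me3 was above 1 RPKM in both libraries at 15 of 39 Hox genes in iPSCs, 4 in MEFs and 2 in pre-iPSCs, against 339, 663 and 428 of all genes. For ectoderm regulators the counts ran the other way, with 4 of 46 in iPSCs, 15 in MEFs and 5 in pre-iPSCs, and 10 of them had a higher ratio in iPSCs. These counts of genes over a level were not tested between cell types.

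Against pre-iPSCs the ratio differed at few genes: 11 higher (0.0597%) and 36 lower (0.195%). DESeq2 called 0 and 0 (722 genes at an unadjusted p below 0.05), and edgeR without the second pre-iPSC library of H3K27me3 called 0 and 0. Of the genes with a higher ratio in iPSCs, Hhex, a homeobox factor of liver and blood vessels, had 2.42 and 1.79 RPKM of H3K4me3 against 1.48 and 0.843 RPKM in pre-iPSCs, and 0.215 and 0.222 RPKM of H3K27me3 against 0.525 and 1.10 RPKM (difference of log2 ratios 2.71, adjusted p 0.00907). Mip (a lens aquaporin, 2.65), Cacng6 (a calcium channel subunit, 2.46), Mpped1 (2.30) and Emilin1 (an elastic fibre protein, 2.18) followed. Leaving out 1 library gave 1.75 to 3.20 over these 5 genes.

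Of the genes with a lower ratio, Meis2, a TALE homeobox factor, had 0.573 and 0.48 RPKM of H3K27me3 in iPSCs against 0.035 and 0.0756 RPKM in pre-iPSCs (difference -3.70, adjusted p 0.00738), at 0.952 and 3.20 FPKM against 15.2 and 6.67 FPKM. Pax6 had 0.824 and 0.369 RPKM of H3K27me3 against 0.105 and 0.0378 RPKM (difference -3.40, adjusted p 0.00936). Zadh2 (-3.55), Cd80 (-3.49), a T cell costimulator, and Srpk2 (-3.41), an SR protein kinase, complete the list. Zadh2 rests on 0.07 and 0 RPKM of H3K27me3 in pre-iPSCs: its difference was -2.68 without the second of these libraries and -6.66 without the first. The other 4 lay between -4.28 and -2.70 when 1 library was left out.

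Most genes with both marks in iPSCs did not pass the level for both in another cell type. MEFs had 199 such genes (0.987% of all genes) and pre-iPSCs 156 (0.774%), the shares against which the overlaps stand. iPSCs shared 34 with MEFs (16.6% of the iPSC set, 17.1% of the MEF set) and 42 with pre-iPSCs (20.5% and 26.9%), and 13 genes (6.34% of the iPSC set) were in all 3 sets. These 13 were chosen by that overlap alone and include Ascl2, Nkx2-3, Adora1 (an adenosine receptor), Glp1r, Gcgr (the glucagon receptor), Nptx1 and Syt6 beside Sfi1 and Heatr7b1. Of the 205 genes, 88 in MEFs and 104 in pre-iPSCs had replicates that differed, and 14 and 6 had neither mark. Over all genes 12.4% in MEFs and 17.4% in pre-iPSCs had replicates that differed, and 33.5% and 37.6% had neither mark. The test of the difference in ratio called 12 of the 205 higher and 15 lower in iPSCs than in MEFs, where 3.7% and 12.8% of all genes tested were called, and 0 and 1 against pre-iPSCs (0.0597% and 0.195%). Since the sets are cut at a level near which most of their genes lie, a gene outside a set may differ from one inside it by a few reads.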

How the data were processed

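Chromatin and RNA of MEFs, pre-iPSCs and iPSCs were compared, with libraries titled as repeats called replicate 2. The authors aligned ChIP reads to mm9 with Bowtie 1.0.1, kept unique reads and called nucleosomes. The deposited counts are the reads of each called nucleosome, so reads outside calls were not used here. The authors computed the deposited FPKM with Cufflinks 2.0.2 after TopHat2 2.0.4, and their depth is unknown.

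Reads were counted at the centre of a call, within 1000 bp of the TSS of 20156 RefSeq genes. Library size was the summed reads of a library. Windows were tested with the quasi-likelihood test of edgeR 4.0.16 (R 4.3.3, filterByExpr, Benjamini-Hochberg, adjusted p below 0.05 and 2-fold), within iPSCs on 4 libraries and between cell types as an interaction on 12. On simulated counts of the 17346 iPSC windows, 20 of 200 planted 2-fold and 189 of 200 planted 4-fold changes were recovered. For the interaction against MEFs it was 0 and 110 of 200 on 18425 windows. Recovery was counted at an adjusted p below 0.05 alone, with all other windows simulated without a difference. Since most windows of the iPSC comparison do differ, these counts do not give the recovery of the calls made here. CpG is observed over expected in the window. Python 3.11.15 was used.

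Genes named are the 8 called genes at each end with the leading mark above 1 RPKM in both libraries (5 met this at the H3K27me3 end), the 10 genes with both marks whose lower mark was highest, 5 per direction of each interaction, and a panel. Names beginning with Gm and digits, LOC, Mir or Snor, or ending in Rik, were passed over. List members and other genes are named from their lists or, where stated, after their values were seen. The members and lists were chosen with earlier results of these data known. Alternatives were DESeq2 1.42.0, TMM, unique reads, another window, calls of at least 2 reads, no filter, a replicate block, other levels and left-out libraries or genes. Some results of the panel are not reported here.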

Additional observations from a re-analysis of the deposited data

Results flagged for a closer look

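The ratio of H3K4me3 to H3K27me3 in iPSCs differed from that in another cell type, by the test of the difference itself (edgeR's quasi-likelihood test of the interaction), at 682 genes that were higher and 2360 that were lower than in MEFs, and at 11 that were higher and 36 that were lower than in pre-iPSCs. Of the named genes, the difference of log2 ratios against MEFs was 4.47 for L1td1, 4.21 for F2, 4.04 for Sall4, 3.83 for Tdgf1 and 3.68 for Gpr1. Zfyve16 (adjusted p 3.07e-05), Zfp948 (0.000123), Gapdh (0.000341), Brd2 (0.000643) and Slc25a28 (0.000682) were lower in iPSCs, with no H3K27me3 read in MEFs. Against pre-iPSCs the difference was 2.71 for Hhex, 2.65 for Mip, 2.46 for Cacng6, 2.30 for Mpped1, 2.18 for Emilin1, -3.70 for Meis2, -3.55 for Zadh2, -3.49 for Cd80, -3.41 for Srpk2 and -3.40 for Pax6. The cause of these differences was not tested.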

How the results depend on the processing

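Leaving out 1 library at a time gave 10639 to 11074 genes at the H3K4me3 end, 108 to 155 at the H3K27me3 end, 304 to 590 and 1078 to 3006 genes higher and lower than in MEFs, 0 to 16 and 0 to 31 higher and lower than in pre-iPSCs, and 234 to 570 genes with both marks, where the lone library of a group is assumed to vary like the others. Against 682 genes higher than in MEFs, 304 were called without MEF H3K27me3 replicate 2, 367 and 449 without iPSC H3K27me3 replicate 1 or 2, and 383 without iPSC H3K4me3 replicate 1. Against 2360 lower, 1352 and 1336 were called without MEF H3K27me3 replicate 1 or 2, 1340 without MEF H3K4me3 replicate 1 and 1078 without iPSC H3K27me3 replicate 1. For pre-iPSCs, the counts higher and lower were 1 and 9 or 3 and 13 without iPSC H3K27me3 replicate 1 or 2, 1 and 7 without iPSC H3K4me3 replicate 1, 3 and 8 or 0 and 0 without pre-iPSC H3K27me3 replicate 1 or 2, and 5 and 12 or 2 and 13 without pre-iPSC H3K4me3 replicate 1 or 2.

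With TMM scaling the counts at the ends were 4826 and 4472, against MEFs 2095 and 1090, and against pre-iPSCs 35 higher and 46 lower. DESeq2 gave 2 genes at the H3K27me3 end, 99 and 592 against MEFs, and 0 and 0 against pre-iPSCs. Windows of 500 bp gave 46 at the H3K27me3 end, 105 and 289 against MEFs, 0 and 2 against pre-iPSCs, and 148 with both marks (76 of the 205 among them). Calls of at least 2 reads gave 405 higher than in MEFs and 775 genes with both marks. Genes with both marks were 25 with unique reads, 3 above 2 RPKM and 4009 above 0.5 RPKM. Leaving out a library only drops a condition of that rule, so this count can only rise above 205. No spread is estimated for it. In the tests between cell types, the ranges given above for left-out libraries cover only libraries of the cell types compared. Leaving out a library of the remaining cell type, which shares the estimate of the spread, also changed the counts and is not in those ranges.

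The replicate block, as the numbers do not pair the libraries (correlation of deviations 0.0853, 2 pairs), gave 11011 and 135 genes at the ends, 700 and 2300 against MEFs, and 10 and 34 against pre-iPSCs. Alternatives chosen after seeing the data were the left-out MEF and pre-iPSC libraries, windows without high H3 (199 genes with both marks), and each mark above both H3 libraries, which left 98.

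The log2 ratio changed sign with TMM scaling at Sfi1 (-0.30), Glp1r (-0.72), Helt (-1.45), Cpne7 (-1.06), Accn4 (-1.50), Acta1 (-1.50), Dppa3 (-0.38), T (-0.73), Gata4 (-0.59), Gata6 (-0.21), Sox17 (-1.17), Foxa2 (-1.52), Pax6 (-0.79), Cdx2 (-0.72), Eomes (-0.073), Hoxb1 (-1.01), Hoxd11 (-1.13), Hoxd13 (-0.55), Col1a1 (-1.10), Prrx1 (-0.73), Tgfb1 (-0.18), Ddx4 (-1.09) and Dazl (-0.74), and with windows of 500 bp at Heatr7b1 (0.12) and Sox17 (-0.020). Without 1 library it ran from -0.51 to 0.21 at Ugt1a1, -0.027 to 0.24 at Helt, -0.067 to 0.91 at Cpne7, -0.11 to 0.22 at Accn4, -0.47 to 0.44 at Acta1, -0.37 to 0.079 at Trpm8, -0.37 to 0.26 at Esrrb, -0.32 to 0.49 at Foxa2 and -0.21 to 0.86 at Hoxd11. Over all named genes and alternatives, 934 values kept direction and side of the threshold, 127 lost the call, 19 gained it and 36 changed sign. Of these 36, the ones with TMM scaling follow from its shift of all genes and say nothing of the single gene. Except where the setting itself tests fewer genes or libraries, the cause was not tested. At 1 RPKM a window holds 24.6 to 27.9 reads in the libraries of either mark, which limits the precision of levels near it.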
